A study of Homo sapiens with 11 samples.

Results

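The genes described here are 39 enzymes, transporters and regulators of glycolysis, the pentose phosphate pathway, lactate handling and the entry of pyruvate into the citric acid cycle. They were chosen by name. Of the 15148 genes listed in at least 1 of 2 expression tables, 38 are members, 36 members were listed in both tables, and FBP1 was in neither. All libraries are RNA-seq of ARP1, a long-established cell line from human multiple myeloma, a cancer of plasma cells, whose immunoglobulin is IgA kappa. PHF19, the gene that was altered, encodes an accessory subunit of Polycomb repressive complex 2, which methylates histone H3. In the first table, 3 libraries from cells given an shRNA against PHF19 were compared with 3 scramble libraries. The other table compared 2 libraries of PHF19 overexpressing cells, infected with lentivirus carrying a PCDH plasmid with the PHF19 open reading frame, with 3 libraries of cells that received the empty PCDH vector, numbered 3, 4 and 5. The virus was made in HEK293T cells, and the overexpressing cells were sorted before RNA was extracted. No time point, clone or hairpin is named in the labels, and scramble and shRNA samples carry a genotype tag that says overexpressed, so groups follow the sample titles. Letters at the end of the sample descriptions (F for overexpression, S for empty vector) follow the groups exactly, so what they mark and the group cannot be told apart. Nothing says that replicates were separate cultures, so p-values measure the spread between these libraries, which may be technical.

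Glycolysis splits glucose into pyruvate. Phosphofructokinase sets its committed step, and its platelet, muscle and liver type subunits PFKP, PFKM and PFKL come from separate genes. PFKFB enzymes make and remove fructose 2,6-bisphosphate, which activates phosphofructokinase. Lactate dehydrogenase interconverts pyruvate and lactate, with LDHA and LDHB as its subunits, and monocarboxylate transporters carry lactate across the membrane. Pyruvate dehydrogenase feeds pyruvate to the mitochondrial citric acid cycle and is switched off by PDK kinases. The pentose phosphate branch makes NADPH and ribose 5-phosphate. Hypoxia-inducible factor (HIF) and MYC are both known to drive many of these genes in tumour cells.

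Values are abundances per gene length and library depth, of FPKM type; the tables carry no counts, so depth is unknown. The members made up 2.57% to 2.67% of all listed abundance with scramble and 1.86% to 2.19% with shRNA. In the other table the share was 2.45% to 2.88% with empty vector and 2.83% and 2.98% with overexpression. PHF19 was at 113, 152 and 123 with scramble and at 75.2, 103 and 108 with shRNA. Its log2 fold change was -0.44 (SE 0.17, limma adjusted p = 0.147, or 0.0445 with the replicate number as a block), so the reported fit did not call the knockdown. Here limma is a linear model fitted to all genes of a table. The block pairs scramble and shRNA libraries of equal number, a pairing that no label states. With empty vector PHF19 was at 111, 119 and 115 and with overexpression at 227 and 213 (0.93, SE 0.09, limma adjusted p = 0.0438). Of 11 plasma cell markers in the first table, 10 were at 1 or more in every library, and 8 of 10 were so in the other table. Of the markers of other cells, PAX5, a B cell factor, was at 1.64 to 2.66 and at 1.56 to 2.09 in the respective tables, in every library. LYZ, a monocyte gene, reached 1.71 and 6.17, and COL1A1, a stromal gene, 0.41 and 2.57. CD3E of T cells, listed for knockdown, reached 0.96. Each expression table held 1 library that stood apart from its own group. On the first principal component of the knockdown table, shRNA replicate 1 scored 34.6, the other shRNA libraries 8.72 and 10.7, and scramble libraries -21.4 to -15.0. In the overexpression table, empty vector replicate 5 scored 22.1, the overexpression libraries 12.8 and 13.8, and the other empty vector libraries -27.7 and -20.9.

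Promoters of 4 members are shown because these genes mark the ends of the results. PFKL and PGLS were higher with shRNA, LDHA had the most negative fold change, and ALDOC was among the members in which empty vector replicate 5 sat at the level of overexpression. Each sequence is the 250 bases before a transcription start, from RefSeq on GRCh38.p14, 5′ to 3′ on the gene's strand, with ACGTG, the core of the HIF binding site, in capitals wherever it occurs on either strand.
PFKL, chr21:44299803-44300052, plus strand: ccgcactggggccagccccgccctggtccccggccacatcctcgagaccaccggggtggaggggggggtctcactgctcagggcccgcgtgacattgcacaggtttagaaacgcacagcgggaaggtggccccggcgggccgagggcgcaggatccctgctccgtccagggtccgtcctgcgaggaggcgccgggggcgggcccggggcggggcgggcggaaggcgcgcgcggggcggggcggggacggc
PGLS, chr19:17511399-17511648, plus strand: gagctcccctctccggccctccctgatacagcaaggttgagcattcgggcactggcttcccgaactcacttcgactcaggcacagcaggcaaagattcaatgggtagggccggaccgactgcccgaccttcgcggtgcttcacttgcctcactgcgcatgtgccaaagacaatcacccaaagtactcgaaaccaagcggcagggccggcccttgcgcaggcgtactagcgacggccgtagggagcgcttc
LDHA, the first of its 2 listed starts, chr11:18394313-18394562, plus strand: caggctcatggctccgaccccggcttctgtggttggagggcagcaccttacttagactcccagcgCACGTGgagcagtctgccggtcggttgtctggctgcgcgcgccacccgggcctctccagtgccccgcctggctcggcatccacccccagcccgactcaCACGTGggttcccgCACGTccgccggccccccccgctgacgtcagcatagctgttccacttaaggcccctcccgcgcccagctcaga
ALDOC, chr17:28576896-28577145, minus strand: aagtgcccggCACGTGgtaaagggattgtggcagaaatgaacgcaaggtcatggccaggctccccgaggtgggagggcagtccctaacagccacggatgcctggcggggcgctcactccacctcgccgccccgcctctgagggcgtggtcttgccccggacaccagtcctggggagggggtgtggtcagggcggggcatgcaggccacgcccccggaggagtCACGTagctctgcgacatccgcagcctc
The PFKL and PGLS windows hold no ACGTG, the LDHA window shown holds 5 and the ALDOC window 3, where a CACGTG is its own reverse complement and counts once on each strand. The window of the other LDHA start, not shown, holds no ACGTG. The windows of PGAM1 and SLC2A1, which lay lower with shRNA, hold none either. PFKFB4, in which empty vector replicate 5 also stood high, has none in its window. At least 1 ACGTG stood in a window of 21 of the 36 members with an entry. Whether the motif goes with the direction of change was not tested, and the 4 windows shown cannot tell. Over the 36 members with an entry, ACGTG stood in 24 of 65 start windows (36.9%), against 18.5% of all 35116 windows. CACGTG, the E-box that MYC and related factors bind, stood in 12.3% of member windows and 6.34% of all windows. The PFKL window is 78.0% G and C and holds GGGCGG, the GC box, 7 times on either strand, and that motif stood in 44 of 65 member windows (67.7%) and in 42.6% of all windows. TGATGNAA, an amino acid response motif searched on both strands, stood in 2 of 65 member windows (3.08%) and in 3.14% of all. These matches describe letters only, and binding was not measured.

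With shRNA most of the pathway lay slightly lower, while PFKL and PGLS rose. Of 38 members in the table, 37 passed the filter on low values and were tested, and PFKP, at 0.00 to 0.04 in every library, was not. Of the 37, 25 had a log2 fold change below 0 and 12 above, with a median of -0.24 against 0.03 over all 10900 genes tested. The limma threshold of 0.05 on the adjusted p was passed by 4 members: PFKL and PGLS rose and PFKM and PGAM1 fell. The share called over all genes was 4.24% higher and 1.28% lower. With the replicate number as a block 2 members passed as higher and 8 as lower, against 8.20% and 3.68% of all genes. In 17 members every shRNA library lay below every scramble library and in 3 every one lay above, against 13.0% and 18.9% of all genes. None of the 4 calls held without any 1 scramble library or without shRNA replicate 3. Without shRNA replicate 2, PFKL and PGLS passed. Without shRNA replicate 1, the library that stood apart, PFKL, PGLS, PFKM, ALDOC and LDHA passed.

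**Figure D1:**
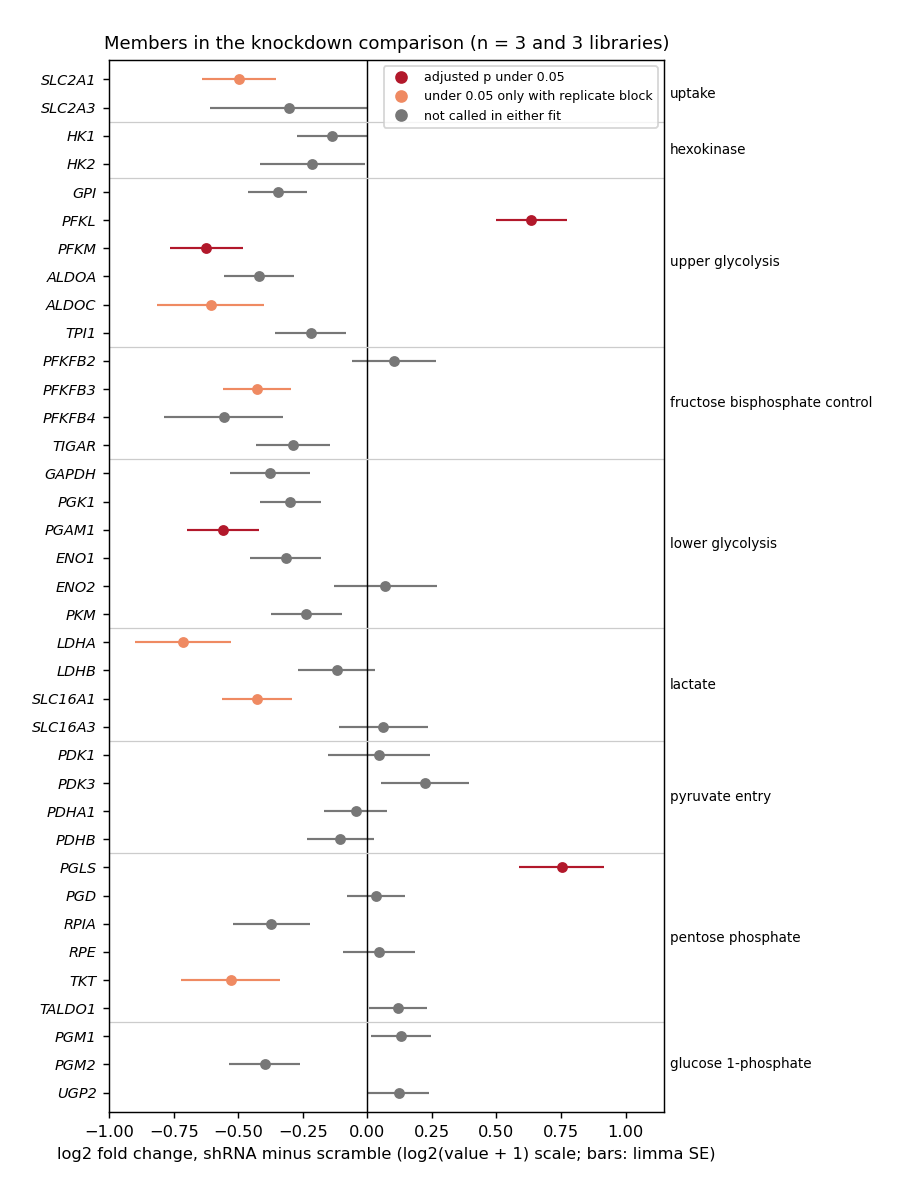
Log2 fold change of each tested member, shRNA minus scramble, on the log2(value + 1) scale, with bars of 1 limma SE (3 libraries a group), ordered by role. PFKL and PGLS stand at 0.63 and 0.75, while most upper and lower glycolysis genes lie between -0.62 and -0.22.

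Glucose enters through GLUT1 and GLUT3, encoded by SLC2A1 and SLC2A3. SLC2A1 was at 11.4, 10.7 and 11.6 with scramble and 6.55, 8.75 and 7.83 with shRNA, with no overlap. Its log2 fold change of -0.50 (SE 0.14) missed the limma threshold without the block (adjusted p = 0.0746) and passed with it (0.0437). SLC2A3 was at 4.07, 8.17 and 9.48 with scramble and 3.33, 6.53 and 6.93 with shRNA. In both groups the first library of SLC2A3 was the lowest, and the groups overlapped (-0.30, SE 0.31, limma adjusted p = 0.579). The hexokinases trap glucose as glucose 6-phosphate. HK1 was at 8.39, 7.77 and 7.87 with scramble and at 7.94, 6.74 and 6.97 with shRNA. HK2, the isozyme typical of tumour cells, was at 5.76, 4.68 and 5.83 with scramble and at 3.05, 5.48 and 5.42 with shRNA. Neither hexokinase was called, both groups overlapped, and the low HK2 value came from shRNA replicate 1 alone.

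The phosphofructokinase subunits moved in opposite directions. PFKL was at 47.6, 45.6 and 53.2 with scramble and at 90.1, 66.7 and 73.6 with shRNA. Every shRNA value of PFKL lay above every scramble value (log2 fold change 0.63, SE 0.14, limma adjusted p = 0.0315). PFKM was at 74.5, 57.3 and 62.5 with scramble and at 35.8, 45.7 and 43.4 with shRNA. Every shRNA value of PFKM lay below every scramble value (-0.62, SE 0.14, limma adjusted p = 0.0356). PFKL thus made up 39.0%, 44.3% and 46.0% of the summed PFKL and PFKM abundance with scramble and 71.6%, 59.4% and 62.9% with shRNA. The minor isozyme became the major one, since PFKM led in all 3 scramble libraries and PFKL in all 3 shRNA libraries. The within-library difference, PFKL minus PFKM on the log2(value + 1) scale, was -0.39 ± 0.21 (SD, n = 3) with scramble and 0.86 ± 0.40 (SD, n = 3) with shRNA. Its exact two-sided permutation p was 0.1, the smallest that 3 against 3 libraries allow, and 0.214 adjusted over 15 isozyme pairs. The subunits form mixed tetramers, so these are levels of transcripts and not of enzymes.

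**Figure D2:**
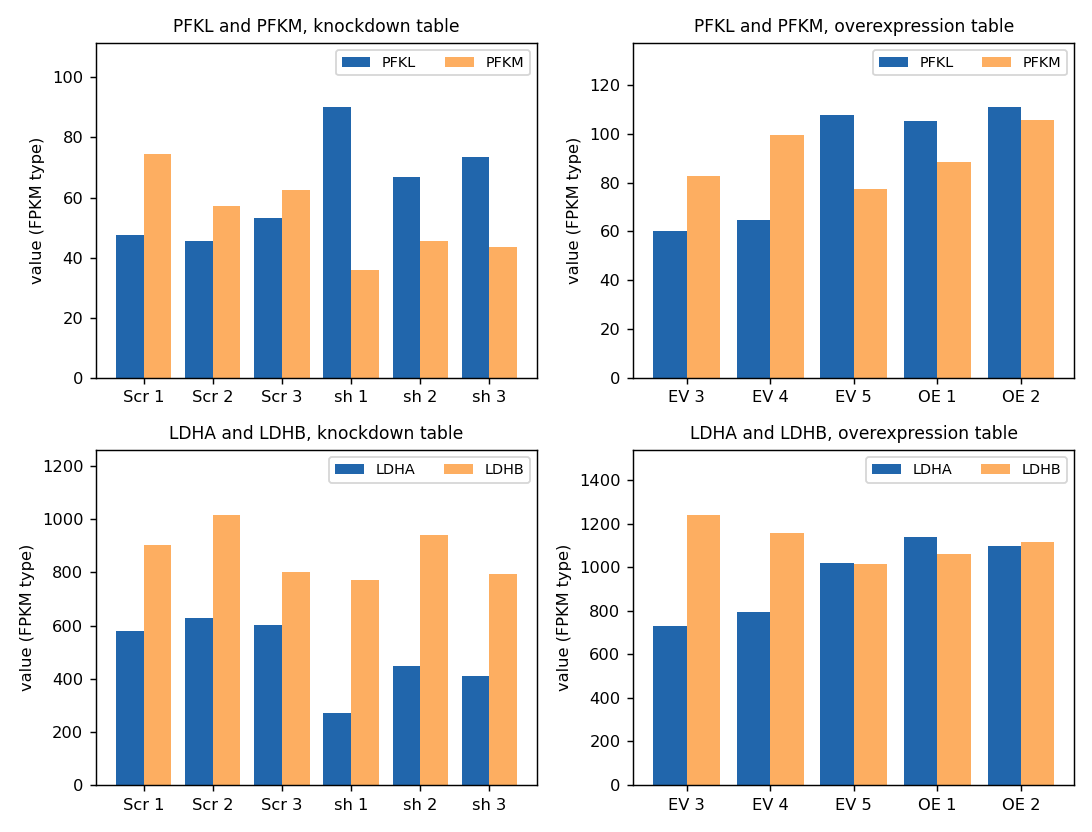
Abundance (FPKM type) of PFKL with PFKM and of LDHA with LDHB in each library, 1 bar per library and gene, in the knockdown table (left) and the overexpression table (right). PFKM is the taller bar in all 3 scramble libraries and PFKL in all 3 shRNA libraries; in the overexpression table the change of order falls between empty vector replicate 4 and replicate 5.

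The other enzymes above the split into trioses were mostly lower with shRNA. ALDOA and ALDOC encode aldolases, which cleave fructose 1,6-bisphosphate. ALDOC was at 31.1, 24.2 and 24.9 with scramble and at 24.7, 14.3 and 14.0 with shRNA. Its first shRNA library lay among the scramble values, and the change (-0.61, SE 0.21) passed only with the block (limma adjusted p = 0.113 without, 0.0190 with it). ALDOA, far more abundant at 1331 to 1572 with scramble, was at 1050.4 to 1118 with shRNA (-0.42, limma adjusted p = 0.0980). GPI, which converts glucose 6-phosphate to fructose 6-phosphate, was at -0.35 and TPI1, which interconverts the trioses, at -0.22 on the log2 fold change scale, neither called and neither with overlap. Of the regulators of phosphofructokinase, PFKFB3 was at 19.6, 17.6 and 19.7 with scramble and at 13.8, 12.4 and 15.4 with shRNA. The fold change of PFKFB3 (-0.43, SE 0.13) passed only with the block (limma adjusted p = 0.0858 without, 0.0388 with it). PFKFB2 was at 1.29, 0.80 and 1.31 with scramble and at 1.21, 1.32 and 1.30 with shRNA, and PFKFB4 lay on both sides of 1 in both groups. TIGAR, a phosphatase acting on fructose 2,6-bisphosphate, was at 3.35 to 3.48 with scramble and 2.44 to 2.94 with shRNA (-0.29, limma adjusted p = 0.254).

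Lower glycolysis, from glyceraldehyde 3-phosphate to pyruvate, held 6 members, of which 5 had shRNA libraries wholly below scramble and 1, PGAM1, was called. PGAM1, which moves the phosphate of 3-phosphoglycerate, was at 449, 414 and 380.1 with scramble and at 245, 305 and 295 with shRNA. Its change was -0.56 (SE 0.14, limma adjusted p = 0.0468). GAPDH, the most abundant member, was at 5236, 5184 and 4541 with scramble and at 3427, 4048 and 4057 with shRNA. It lay lower in all shRNA libraries without passing the test (-0.38, SE 0.15, limma adjusted p = 0.169). PGK1, ENO1 and PKM had log2 fold changes of -0.30, -0.32 and -0.24, and none was called. ENO2, the neuronal enolase, was at 0.07 with overlapping groups. Reads of PGAM1 and GAPDH are uncertain, because 13 and 62 annotated pseudogenes carry their names. Fewer carry those of other members, such as 6 each for LDHA and RPE, 5 for PKM and 4 each for TPI1 and ENO1. No source used here says how reads with several matches were treated, so the limit holds for these members too.

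Of the lactate genes, LDHA and the lactate transporter SLC16A1 (MCT1) were lower in all shRNA libraries. LDHA was at 581, 628 and 603 with scramble and at 269.8, 448 and 409 with shRNA. The most negative change among the members, -0.72 (SE 0.19), narrowly missed the limma threshold without the block (adjusted p = 0.0536) and passed with it (0.0176). LDHB was at 905, 1018 and 802 with scramble and at 770.1, 941 and 794 with shRNA, and the groups overlapped (-0.12, SE 0.15, limma adjusted p = 0.663). LDHA was 39.1%, 38.1% and 42.9% of summed LDHA and LDHB with scramble and 25.9%, 32.3% and 34.0% with shRNA. SLC16A1 was at 22.6, 24.2 and 25.8 with scramble and at 15.4, 20.3 and 17.9 with shRNA (-0.43, SE 0.14, limma adjusted p = 0.0937, or 0.0416 with the block). SLC16A3 (MCT4), the exporter of highly glycolytic cells, was at 15.5, 24.6 and 23.7 with scramble and at 22.0, 20.6 and 22.7 with shRNA. The groups of SLC16A3 overlapped (0.06, SE 0.17, limma adjusted p = 0.857).

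Of 13 isozyme pairs without a value of 0, 5 had balances that did not overlap between the groups. Each of the 5 reached the smallest exact permutation p of 0.1 (0.214 adjusted over 15 pairs). Over all single genes, 18.9% lay wholly above and 13.0% wholly below scramble, and no share was computed for other gene pairs. Beside PFKL with PFKM the 5 pairs were LDHA with LDHB (difference of balance -0.60), SLC16A1 with SLC16A3 (-0.49), PFKFB2 with PFKFB3 (0.53) and PGM1 with PGM2 (0.53). The SLC16A1 balance was separated only barely, since SLC16A1 made up 49.6% of the pair in both scramble replicate 2 and shRNA replicate 2. PGM1 interconverts glucose 1-phosphate and glucose 6-phosphate, the link to glycogen, and PGM2 was paired with it by name. PGM1 was at 27.9, 24.9 and 26.7 with scramble and at 30.7, 27.7 and 28.8 with shRNA, and PGM2 at 12.4, 13.4 and 13.8 with scramble and at 8.62, 11.1 and 9.68 with shRNA. Neither PGM gene was called alone, and PGM2 had groups that did not overlap. HK1 with HK2, ALDOA with ALDOC, ENO1 with ENO2 and PDK1 with PDK3 overlapped.

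The pentose phosphate genes did not share a direction, with 4 of 6 above 0 and a median log2 fold change of 0.04. PGLS, which hydrolyses 6-phosphogluconolactone in the oxidative arm, was at 47.7, 63.6 and 59.8 with scramble and at 119, 84.1 and 88.7 with shRNA. It rose by 0.75 (SE 0.16, limma adjusted p = 0.0315) and had the largest rise among the tested members. PGD, the next oxidative enzyme, was at 63.3 to 67.9 with scramble and 63.8 to 72.0 with shRNA (0.03, limma adjusted p = 0.879). In the non-oxidative arm, TKT, the transketolase, was at 203, 224 and 230.4 with scramble and at 108, 175 and 183 with shRNA. Its change of -0.53 (SE 0.19) passed only with the block (limma adjusted p = 0.129 without, 0.0408 with it). With the block and a correction for GC content, chosen after seeing the data, TKT had a limma adjusted p of 0.0528, and without shRNA replicate 1, the library that stood apart, its change was -0.29 (limma adjusted p = 0.171). TALDO1, the transaldolase, was slightly higher in all shRNA libraries, 169.7 to 180.1 against 155 to 167 (0.12, limma adjusted p = 0.563). RPIA, which makes ribose 5-phosphate, was at -0.37 and RPE at 0.05, and neither was called. In pyruvate entry no gene was called, and the median log2 fold change was 0.0004. PDHA1 and PDHB, the pyruvate dehydrogenase E1 subunits, were at -0.05 and -0.10 and the kinases PDK1 and PDK3 at 0.05 and 0.22, all with overlapping groups.

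PFKL and PGLS, the members that rose, are also the most GC-rich. GC content, the median over protein-coding transcripts in GENCODE release 29, was 67.8% for PFKL and 65.3% for PGLS, and the next member, SLC16A3, stood at 64.7%. Over all genes, the 417 genes of at least 65% GC had a median log2 fold change of 0.14 against 0.03 for the rest, and Spearman's rho of fold change with GC was 0.12 across 10554 genes, which are not independent replicates and share these libraries. After that GC correction PFKL was at 0.49 (limma adjusted p = 0.0766) and PGLS at 0.63 (0.0519), and with the block added PFKL passed (0.0455) and PGLS did not (0.0590). Over all alternatives the limma adjusted p ranged from 0.0141 to 0.131 for PFKL and from 0.0304 to 0.119 for PGLS. The GC correction called no member as higher and 6 as lower: SLC2A1, PFKM, PFKFB3, PGAM1, LDHA and SLC16A1. Of the 10578 genes in that fit, 402 were called higher and 238 lower.

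**Figure D3:**
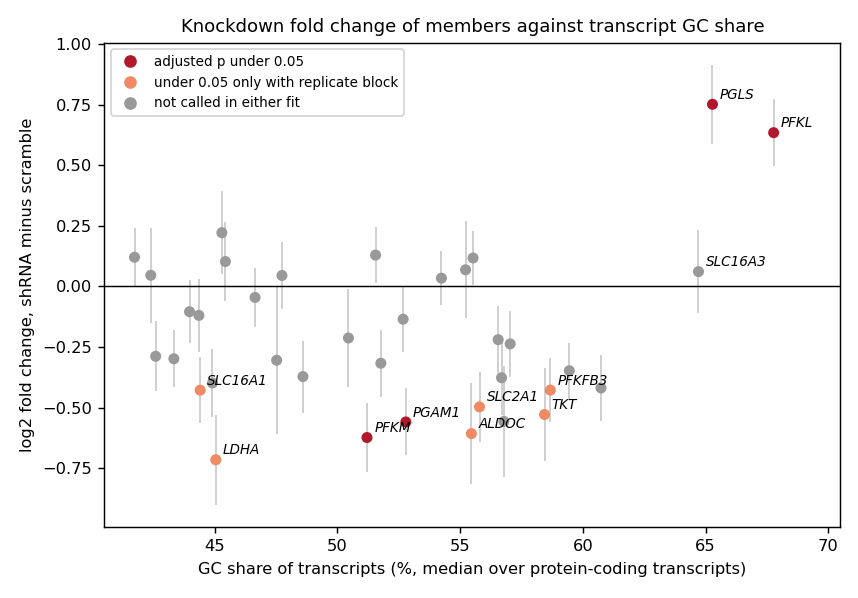
Log2 fold change of each tested member, shRNA minus scramble (bars, 1 limma SE), against the GC share of its transcripts in percent. PFKL (67.8%) and PGLS (65.3%) lie at the far right and highest, and SLC16A3 (64.7%) lies near 0.

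Among 50 other genes of the pathway, 36 were tested, with a median log2 fold change of 0.09, and 3 were called, all higher. This and the next lists were written with earlier results of these data known and are no independent evidence. PCK2, the mitochondrial enzyme that makes phosphoenolpyruvate, was at 13.1, 25.1 and 30.7 with scramble and at 81.4, 115 and 132 with shRNA (2.26, SE 0.29, limma adjusted p = 0.00957). H6PD, which starts the pentose pathway of the endoplasmic reticulum, was at 2.27, 4.04 and 5.20 with scramble and 9.49, 7.04 and 9.22 with shRNA (1.03, SE 0.23, limma adjusted p = 0.0342). SLC2A8, the intracellular glucose transporter GLUT8, was at 5.01, 5.71 and 4.42 with scramble and 9.61, 8.57 and 9.21 with shRNA (0.75, SE 0.14, limma adjusted p = 0.0225). PRPS1, which turns ribose 5-phosphate into the nucleotide precursor PRPP, was at 68.9, 74.2 and 64.3 with scramble and at 41.6, 54.6 and 54.6 with shRNA, and passed only with the block (-0.46, limma adjusted p = 0.0817 without, 0.0398 with it). PCK2 is also a target of ATF4 in the integrated stress response. Of 25 genes of that response, 23 were called higher, with a median of 1.47. Over all genes 4.24% were called higher, with a median of 0.03.

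Of 11 regulators of these genes that were tested, none was called without the block. MYC was at 262, 233 and 248 with scramble and at 134, 193 and 204 with shRNA, with no overlap (-0.50, SE 0.17, limma adjusted p = 0.103, or 0.0640 with the block). HIF1A, the oxygen-sensitive HIF subunit, was at 5.39, 7.95 and 8.14 with scramble and at 5.37, 8.08 and 7.98 with shRNA. TXNIP, which limits glucose uptake, was at 13.3 to 15.7 with scramble and 8.67 to 11.9 with shRNA (-0.48, limma adjusted p = 0.0917, or 0.0357 with the block). Of 12 HIF targets outside the pathway, 2 were called, both higher: VEGFA (1.03, limma adjusted p = 0.0382) and DDIT4 (2.22, limma adjusted p = 0.0419), which are targets of the stress response as well. Over all genes 4.24% were called higher and 1.28% lower. NDRG1 was at 20.2, 22.7 and 21.8 with scramble and at 8.63, 14.2 and 15.3 with shRNA (-0.75, limma adjusted p = 0.0510, or 0.0151 with the block). The median over these 12 was -0.05. Whether MYC or the stress response has a part in the members' values was not tested.

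With overexpression no member was called by limma, and 7 had an unadjusted p under 0.05, all higher: PKM, TALDO1, PGAM1, GAPDH, PGK1, UGP2 and PGLS. Of all genes, 7.88% were higher and 3.65% lower at that unadjusted p. The 7 higher and 0 lower members became 1 and 1 after quantile normalisation, 3 and 0 with median-of-ratios scaling and 4 and 0 with GC correction. The share called at the adjusted threshold over all 10279 genes was 0.613% higher and 0.302% lower. All 36 members in the table were tested; PFKP and TIGAR were not in it. The log2 fold change was above 0 in 29 members and below in 7, with a median of 0.34 against 0.09 over all genes. In 16 members both overexpression libraries lay above all empty vector libraries and in none below all, against 23.1% and 11.1% of all genes. The summed values of all listed genes were also higher with overexpression, 498485 and 502349, against 425155 to 426112 with empty vector. The reported fit did not scale for this. Quantile normalisation moved the median of all genes from 0.09 to -0.04 and that of the members from 0.34 to 0.14.

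Of the 36, 4 were listed at 0 in some library and get no fold. ENO1, the main enolase, was at 0 in empty vector replicate 3 and at 855 and 943 in the other empty vector libraries, against 1231 and 1158 with overexpression. ENO2 was at 4.10, 7.38 and 0 with empty vector and at 19.6 and 21.7 with overexpression. RPE was at 0 in empty vector replicates 3 and 5 and in overexpression replicate 1, and PFKFB3 at 0 in empty vector replicate 5 and overexpression replicate 1. ENO1 is an abundant gene that all cells use, so a 0 in this table can be a failed estimate. Without these 4, 26 of 32 members were above 0, with a median of 0.30.

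Lower glycolysis held 4 of the 7 members with an unadjusted p under 0.05, a count that did not hold after quantile normalisation. PKM, the pyruvate kinase, was at 1329, 1345 and 1206 with empty vector and at 1671 and 1757 with overexpression. Both overexpression values of PKM lay above all 3 controls, yet the change of 0.41 (SE 0.09) had a limma adjusted p of 0.310, and after quantile normalisation it was 0.064. PGAM1 was at 365, 414 and 435 with empty vector and at 533 and 558 with overexpression (0.43, SE 0.11, limma adjusted p = 0.335; 0.28 after quantile normalisation). GAPDH was at 3638, 3671 and 3666 with empty vector and at 4257 and 4584 with overexpression (0.27, SE 0.07, limma adjusted p = 0.340), but its fold change was -0.17 after quantile normalisation. In the pentose branch, TALDO1 was at 142, 139 and 129.7 with empty vector and at 179.6 and 194 with overexpression (0.44, SE 0.10, limma adjusted p = 0.312; 0.27 after quantile normalisation). PGLS was at 30.0, 29.2 and 40.3 with empty vector and at 43.6 and 53.8 with overexpression (0.55, SE 0.20, limma adjusted p = 0.431). PGLS was thus higher in every treated library of both tables, and called in the knockdown table. With overexpression too, genes of at least 65% GC had the higher median fold change, 0.28 against 0.07 for the rest. After GC correction the overexpression change of PGLS was 0.30 (limma adjusted p = 0.613). TKT was at 113 to 134 with empty vector and at 135 and 138 with overexpression (0.14, limma adjusted p = 0.669), and turned to -0.05 after quantile normalisation.

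Many of the remaining values turned on empty vector replicate 5. It lay nearer the overexpression mean than the mean of the other empty vector libraries in 19 of 32 members without a 0 (59.4%). The share was near that over all genes without a 0 (58.0%). PFKL was at 60.2, 64.6 and 108 with empty vector and at 105 and 111 with overexpression. The third control, replicate 5, thus lay between the overexpression libraries, and the change of 0.53 was not called (SE 0.29, limma adjusted p = 0.553). PFKM was at 82.6, 99.4 and 77.4 with empty vector and at 88.3 and 106 with overexpression (0.17, SE 0.16, limma adjusted p = 0.729; 0.014 after quantile normalisation). PFKL made up 42.1% and 39.4% of the pair in empty vector replicates 3 and 4, 58.2% in replicate 5, and 54.4% and 51.2% with overexpression. LDHA was at 732, 795 and 1021 with empty vector and at 1139 and 1099 with overexpression (0.41, SE 0.17, limma adjusted p = 0.474; 0.10 after quantile normalisation). LDHB was at 1243, 1157 and 1014 with empty vector and at 1063 and 1116 with overexpression (-0.06, SE 0.12, limma adjusted p = 0.885). The LDHA share was 37.1%, 40.7% and 50.2% with empty vector and 51.7% and 49.6% with overexpression, so replicate 5 again stood with the overexpression libraries.

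The same held for 3 members known as HIF targets, named because replicate 5 stood highest in them. Its excess over the mean of the other empty vector libraries was 1.41 to 2.49 on the log2 scale in these 3. In other members that excess was smaller, led by 0.93 for SLC2A3, 0.78 for PFKL, 0.75 for GPI and 0.53 for SLC2A1. It was 0.42 for LDHA, 0.39 for PGK1, 0.11 for HK2, 0.03 for SLC16A3, 0.004 for GAPDH and -0.15 for PKM, and lowest for SLC16A1 (-1.02). PDK1, which switches off pyruvate dehydrogenase, was at 8.63, 10.7 and 27.2 with empty vector and at 26.3 and 25.6 with overexpression. ALDOC was at 20.0, 27.9 and 65.05 with empty vector and at 64.2 and 70.4 with overexpression. PFKFB4 was at 1.42, 6.25 and 22.5 with empty vector and at 18.5 and 17.3 with overexpression. In all 3 the high control value is that of replicate 5, and none was called (limma adjusted p = 0.573, 0.553 and 0.660). Among 12 other HIF targets without a 0, 11 were higher in replicate 5 than in both other empty vector libraries (91.7%), against 17 of 32 members (53.1%) and 44.2% of all genes without a 0. P4HA1, a prolyl hydroxylase subunit that is a HIF target, was at 12.8, 23.2 and 102 with empty vector and at 77.7 and 78.4 with overexpression. Over these 12 targets replicate 5 exceeded the other empty vector libraries by a median of 1.44 on the log2 scale, and the overexpression libraries did so by 1.06. For the members those medians were 0.14 and 0.33. HIF1A itself was at 6.78, 7.42 and 10.2 with empty vector and at 6.18 and 6.11 with overexpression.

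**Figure D4:**
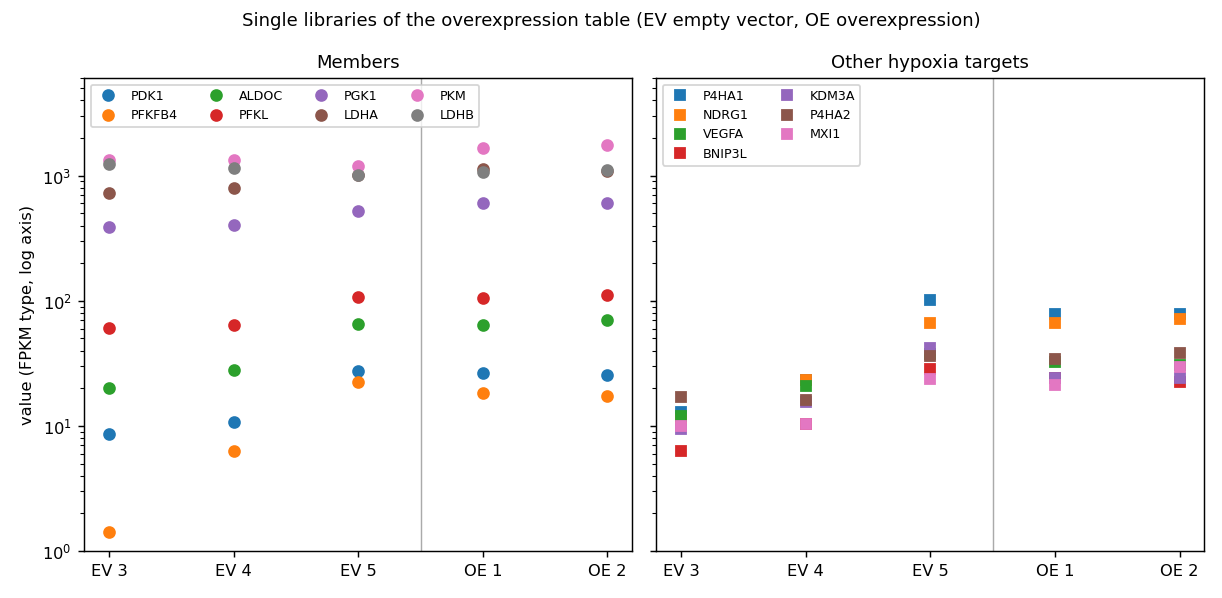
Abundance (FPKM type, log axis) in each library of the overexpression table, for 8 members (left) and 7 other HIF targets (right); 1 point is 1 library, and libraries have no order. PDK1, ALDOC, PFKFB4 and PFKL in empty vector replicate 5 stand at the level of the overexpression libraries, the other targets are at or near that level too, whereas PKM and LDHB do not stand high there.

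Without empty vector replicate 5, 3 members were called higher: PGK1 (0.61, limma adjusted p = 0.0449), PFKL (0.78, limma adjusted p = 0.0463) and PDK1 (1.34, limma adjusted p = 0.0473), against 2.42% of all genes. Over their other alternatives the limma adjusted p of these 3 reached up to 0.967. PGK1, which makes ATP in lower glycolysis, was at 392, 402 and 521 with empty vector and at 605 and 609 with overexpression in all 5 libraries (0.48, SE 0.16, limma adjusted p = 0.398). ALDOC (1.47) and LDHA (0.55) had adjusted p-values of 0.0666 in the same limma fit. No label sets replicate 5 apart, and what distinguishes it was not tested.

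For overexpression 3 of 10 isozyme balances without a value of 0 did not overlap. None had an exact permutation p below 0.2 (0.578 adjusted over 13 pairs, where the smallest possible p is 0.1). Over all single genes, 23.1% lay wholly above and 11.1% wholly below empty vector. SLC2A1 was at 5.999, 10.0 and 11.7 with empty vector and at 11.3 and 12.2 with overexpression, and SLC2A3 at 4.92, 6.99 and 12.1 with empty vector and at 7.01 and 6.37 with overexpression. The balance of SLC2A1 over SLC2A3 was 0.51 higher with overexpression, though neither gene alone separated the groups. For PDK1 over PDK3 the difference was 1.04; PDK3 was at 6.21, 8.08 and 10.1 with empty vector and at 7.496 and 6.53 with overexpression. PDHA1 was at 88.6, 37.5 and 37.6 with empty vector and at 92.4 and 90.5 with overexpression, and PDHB at 68.7, 69.4 and 49.5 with empty vector and at 55.6 and 54.3 with overexpression. The PDHA1 to PDHB balance was 1.02 higher with overexpression, and PDHA1 in empty vector replicate 3 lay close to the overexpression libraries. HK1 was at 7.17, 7.96 and 6.67 with empty vector and at 7.12 and 7.86 with overexpression, and HK2 at 5.79, 6.56 and 6.72 with empty vector and at 7.78 and 7.79 with overexpression. Both overexpression values of HK2 lay above the controls (0.26, SE 0.13, limma adjusted p = 0.528; 0.16 after quantile normalisation), and HK1 had overlapping groups. SLC16A1 was at 33.9, 28.9 and 15.0 with empty vector and at 22.5 and 18.8 with overexpression, its lowest value again being that of replicate 5. GPI was at 71.6 in empty vector replicate 3 and at 229.8 to 291 in the other 4 libraries.

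The 2 tables were normalised separately and share no libraries. Of the members called in the knockdown table, PFKM and PGAM1 fell there and had fold changes of 0.17 and 0.43 with overexpression. PFKL and PGLS rose there and had fold changes of 0.53 and 0.55, with no call among these 4 for overexpression. After GC correction the overexpression changes were 0.084 for PFKM, 0.33 for PGAM1, 0.24 for PFKL and 0.30 for PGLS. Among the 50 other genes of the pathway, 36 were tested with overexpression, none was called by limma, and 4 were higher and 1 lower at an unadjusted p under 0.05 (median 0.19), against the 7.88% and 3.65% of all genes given above. Of 13 HIF targets tested outside the pathway, all had fold changes above 0 (median 0.71), none was called by limma and 1 had an unadjusted p under 0.05. Of 24 integrated stress response genes tested with overexpression, 23 had fold changes above 0 and 1 below (median 0.66). None of them was called by limma, and 8 were higher at an unadjusted p under 0.05. MYC was at 182 to 198 with empty vector and at 237 and 252 with overexpression (0.38, SE 0.10, limma adjusted p = 0.326). In the authors' deposited tables, whose test is not stated, 29 of 38 members had a p-value under 0.05 for knockdown, against 61.2% of all listed genes, and 5 of 36 for overexpression, against 12.9%.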

How the data were processed

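Abundances were deposited by the authors in 2 tables, recorded here as FPKM because no header names the unit; RPKM or TPM would look alike. The knockdown values are rounded to 2 decimals in the deposited table. Reads were aligned with TopHat to hg19, per the submitters' processing notes; no source used here gives the TopHat version, quantifier, annotation or gene filter. A p-value for every gene, from an unnamed test of the authors, stands in both tables, per the file headers.

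Groups were compared within their own table, on log2(value + 1) without further scaling. A gene was tested if it reached 1 in 3 or more libraries (knockdown, 10900 genes) or in 2 or more (overexpression, 10279 genes). Testing used limma's trended, robust variances (limma 3.58.1, R 4.3.3). Its two-sided p-values were adjusted by Benjamini and Hochberg's method over every tested gene of a table, and 0.05 was the threshold. Fold changes are treated minus control on the log2(value + 1) scale, which understates changes of low genes, and their error is limma's standard error. Isozyme balances are differences of log2(value + 1) within a library, tested by exact permutation over libraries. Tables were made with Python 3.11.15, pandas 2.3.3 and numpy 2.4.6, and plots with matplotlib 3.10.9. The fit was tested on simulated data.

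Scramble and shRNA libraries share the numbers 1 to 3. Libraries with equal numbers deviated from their group means together, with correlations over genes of 0.341, 0.270 and 0.273, against -0.277 to 0.0936 for unequal numbers. Deviations of 3 libraries from their own mean sum to 0, so these correlations are not independent of each other. Few ways exist to match 3 libraries with 3, so the check cannot establish a pairing. The block takes the numbers to pair the libraries, from the data and not from a label, and blocked values stand beside results they change. Empty vector and overexpression libraries share no number.

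The members and lists were chosen with earlier results of these data known. Given in full were members past the threshold with or without the block, members of isozyme pairs whose balances did not overlap, the phosphofructokinase, lactate dehydrogenase and hexokinase genes and GAPDH; other members were given by range. Of the other lists, genes past the threshold are named, while MYC, HIF1A, TXNIP, PRPS1, NDRG1, P4HA1, markers of other cells and further members were named after their values were seen. Alternatives were the filter dropped or set at 5, quantile normalisation or median-of-ratios scaling, a pseudocount of 0.1, limma without trend and robust variances, each library left out, genes listed at 0 left out, and the block. The GC correction (loess, span 0.5), alone and with the block, was added after seeing the data; GC was known for 97.0% and 92.7% of genes tested. Promoter sequences are RefSeq's on GRCh38.p14, another build than the authors', and only 36 members had one.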

Additional observations from a re-analysis of the deposited data

How the results depend on the processing

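For knockdown, 462 genes were called higher and 139 lower, against 377 and 206 after quantile normalisation and 406 and 189 with median-of-ratios scaling. Without a filter the counts were 219 and 50, and 87 were lower without trend and robust variances. With the replicate block they were 894 and 401, with GC correction 238 lower, and with both 323 lower. Leaving out 1 library gave 61 to 504 higher and 2 to 132 lower. Of the members, 2 were higher and 2 lower. Lower calls numbered 4 under quantile normalisation and under median-of-ratios scaling, 8 with the replicate block, 6 with GC correction, 7 with both, and 0 without a filter or without trend and robust variances. Higher calls numbered 0 without a filter, 0 with GC correction and 1 with the block added. Leaving out 1 library gave 0 to 2 higher and 0 to 3 lower members. Beside those zeros stand 2 higher and 16 lower members at an unadjusted limma p under 0.05 without a filter, 2 and 17 without trend and robust variances, and 2 and 17 with GC correction. The replicate block changed no member's call other than the 6 named beside their results, and the cause of these shifts was not tested.

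For overexpression, 63 genes were higher and 31 lower. They were 17 and 19 with a filter at 5, 33 higher with a pseudocount of 0.1, and 29 to 249 higher and 27 to 96 lower with 1 library left out. With genes listed at 0 left out limma called 0 and 0, against 807 and 394 at an unadjusted p under 0.05. Leaving out 1 library gave 0 to 3 higher members, where the 3 came without empty vector replicate 5. No paired fit was possible there, since the groups share no number.

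None of the members whose direction changed was called. For knockdown, quantile normalisation gave ENO2 -0.057, PDK1 -0.076 and RPE -0.029, median-of-ratios scaling gave PGD -0.0065, and GC correction, with and without the block, gave PGD -0.0063 and SLC16A3 -0.061. With 1 library left out, the fold change ranged from -0.068 to 0.24 for ENO2, -0.33 to 0.011 for HK2, -0.10 to 0.040 for PDHA1, -0.10 to 0.20 for PDK1, -0.015 to 0.16 for PFKFB2, -0.010 to 0.076 for PGD, -0.015 to 0.14 for RPE and -0.14 to 0.18 for SLC16A3. Balances ranged from -0.21 to 0.23 for HK1 and HK2, -0.39 to 0.047 for PDK1 and PDK3, and -0.38 to 0.14 for SLC2A1 and SLC2A3. For overexpression, quantile normalisation gave GAPDH -0.17, HK1 -0.063, TKT -0.055 and TPI1 -0.18, median-of-ratios scaling gave HK1 -0.027, and GC correction gave HK1 -0.060, TKT -0.027 and TPI1 -0.025. With 1 library left out HK1 ranged from -0.024 to 0.10, LDHB from -0.14 to 0.0083 and SLC2A3 from -0.41 to 0.16. No counts were used here, so what depth limits cannot be given.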
